A study of Homo sapiens with 6 samples.

Results

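The 37 genes described here carry glucose into the cell, break it down to pyruvate and lactate, and form part of the response to low oxygen. They were taken by name from a gene list, and all 37 were found by Ensembl ID among the 40396 genes of the deposited expression table. In glycolysis, glucose taken up by transporters of the SLC2A family is phosphorylated by hexokinase, split by aldolase and turned into pyruvate by a chain of enzymes that ends in pyruvate kinase, after which lactate dehydrogenase can reduce the pyruvate to lactate. Many of these genes are also targets of hypoxia-inducible factor (HIF), a transcription factor whose alpha subunit is hydroxylated by the EGLN enzymes and destroyed while oxygen is present. Pluripotent stem cells are known for a high rate of glycolysis, and early lineage decisions are accompanied by shifts in it.

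The cells were H1, a human embryonic stem cell line, differentiated towards definitive endoderm (DE), the embryonic layer from which gut, liver and pancreas arise, and sampled on day 3. Activin A at 50 ng/mL was given to all 6 samples, and CHIR99021, which activates the Wnt pathway, at 2.5 µM in the first 24 h. The 3 control samples received DMSO, and the 3 SAR samples received 0.5 µM saracatinib (SAR) for the whole of this time. SAR is known as an inhibitor of kinases of the Src family. In the western blots of the study, however, this dose had no effective action on Src phosphorylation. It lowered phosphorylation of focal adhesion kinase (FAK) at some of its sites. Each sample gave 1 mRNA library of bulk cells, deposited as FPKM (fragments divided by gene length and library depth), so levels of different genes are compared here per length. The labels do not say if the samples were separate cultures, so the p-values measure only the spread between these samples.

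Depth recovered from the FPKM was between 16681280 and 24419937 reads per library. Of the 12 DE markers checked, all 12 were measured in every library: 5 were higher with SAR (among them SOX17, FOXA1 and FOXA2) and 6 lower (among them CER1, EOMES and GSC) at an adjusted p-value under 0.05 in limma. Their summed level, most of it CER1, lay between 3953 and 5055 FPKM in control and between 2062 and 2103 FPKM with SAR. The 9 pluripotency markers summed to between 946 and 1060 FPKM in control and between 1152 and 1165 FPKM with SAR, with 3 higher (SOX2, TDGF1 and LIN28A) and 1 lower (NANOG). The mean of NANOG went from 14.7 to 5.89 FPKM and that of SOX2 from 22.1 to 39.8 FPKM. The 9 mesoderm markers summed to between 62.9 and 65.6 FPKM in control and between 38.9 and 51.2 FPKM with SAR. Only 5 of them were tested, with 2 higher (TBXT and TBX6) and 2 lower (MIXL1 and KDR). The mean of MIXL1, the largest part of the control sum, went from 44.7 to 17.8 FPKM, and that of TBXT from 3.51 to 11.7 FPKM. MESP1, HAND1 and FOXF1, below 0.5 FPKM in every library, and MESP2, at a mean of 0.317 FPKM, were not tested. The 5 neural ectoderm markers summed to between 212 and 225 FPKM in control and between 209 and 221 FPKM with SAR, with PAX6, SOX1 and LHX2 near 0, and the 4 extraembryonic markers to no more than 3.40 FPKM in any library, with GATA3, the only one tested, higher with SAR. Over all tested genes, 23.7% were higher and 9.55% lower by the same rule. The part of these markers in the results below was not tested. In bulk RNA, fewer cells of a type and less RNA per cell cannot be told apart.

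HIF binds DNA at a short core, ACGTG or GCGTG, in the promoters of its target genes, and promoter sequence is shown here for 3 genes that were lower with SAR and held cores, and for LDHB, which was higher and held none. They illustrate the motif and are not typical of the list: PDK1, PKM, HK1 and SLC2A1 were also lower with SAR and held 0 cores in the same window. The sequences are those of RefSeq on GRCh38.p14, and positions count back from the RefSeq gene start, which need not be the start used in these cells. Capitals mark a core on either strand. A capital CACGTG holds a core on both strands and is at the same time an E-box, the motif of MYC and related factors. The stretches are PGK1 (chrX:78103998-78104173, plus strand), LDHA (chr11:18394313-18394387, plus strand), LDHB (chr12:21657972-21658092, minus strand) and BNIP3 (chr10:131982014-131982173, minus strand). Each begins at position -250 and stops before the first GENCODE 29 exon that lies within the window. Those of LDHA and BNIP3 lie upstream of the GENCODE 29 gene. The GENCODE 29 genes PGK1 (chrX:77910739-78129296) and LDHB (chr12:21635342-21757857) span their stretches. By that annotation these 2 stretches are therefore not upstream but inside the gene, between exons. A second stretch of LDHA is a site of 29 bases at chr11:18394471-18394499. This site lies before the RefSeq start but past the GENCODE 29 gene start at 18394388, so by that annotation it is not upstream.
PGK1: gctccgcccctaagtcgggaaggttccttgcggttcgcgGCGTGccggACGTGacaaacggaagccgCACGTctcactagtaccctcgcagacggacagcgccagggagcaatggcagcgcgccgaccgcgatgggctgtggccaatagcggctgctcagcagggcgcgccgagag
LDHA: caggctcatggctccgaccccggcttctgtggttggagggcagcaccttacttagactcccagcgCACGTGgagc
LDHA site: actcaCACGTGggttcccgCACGTccgcc
BNIP3: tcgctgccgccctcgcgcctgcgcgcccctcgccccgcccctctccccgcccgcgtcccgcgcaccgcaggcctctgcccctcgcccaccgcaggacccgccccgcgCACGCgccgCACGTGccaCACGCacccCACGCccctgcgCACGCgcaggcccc
LDHB: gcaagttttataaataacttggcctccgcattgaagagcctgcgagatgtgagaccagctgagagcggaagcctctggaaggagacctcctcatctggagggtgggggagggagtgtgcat

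The PGK1 stretch held 3 core matches, and the BNIP3 stretch held 6, the first at position -143 and the last at -104. The LDHA promoter held 5 matches over its 250 bases, 2 of them in the upstream CACGTG and 3 in the site at -92 to -64, where a CACGTG is followed by a further CACGT. The LDHB promoter held 0 matches in 250 bases. Over all 35116 RefSeq promoter windows, 43.2% held at least 1 of these cores in the 250 bases before the start, and 18.5% held ACGTG. A window was found for 33 of the 37 genes, all but SLC2A3, SLC16A1, BNIP3L and NDRG1, and 21 of the 33 (63.6%) held a core and 14 (42.4%) held ACGTG. The windows of these genes were also richer in G and C, with a median of 70.0% against 58.0% over all windows, and the part of base composition in the share with a core was not tested. Among tested genes with a window, the median log2 fold change (SAR minus control) was -0.15 for the 19 with either core and -0.21 for the 12 without, and by ACGTG alone -0.24 for the 13 with it and -0.14 for the 18 without, so the order of the medians turned with the core counted. The match is of letters only and says nothing about binding.

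Of the 37 genes, 35 passed the filter of a mean of at least 0.5 FPKM, and EPAS1 and CA9 did not. Differences are log2 fold changes, SAR minus control, on the log2(FPKM + 0.1) scale, tested with limma over 16371 genes with Benjamini-Hochberg adjustment. In what follows "rose" and "fell" are used of genes with an adjusted p-value under 0.05. By this rule 9 of the 35 genes fell (SLC2A3, PDK1, PKM, BNIP3, HK2, LDHA, HK1, SLC2A1 and PGK1), where 9.55% of all tested genes did, and 2 rose (LDHB and PFKP), where 23.7% of all tested genes did. With the further demand of an absolute log2 fold change above 1, 1 gene fell (SLC2A3; 1.58% of all tested genes) and 0 rose (3.41% of all tested genes). In 10 of the 35 genes all SAR libraries lay below all control libraries (15.2% of all tested genes), and in 4 all lay above (35.5% of all tested genes). The median log2 fold change was -0.15 over the 35 genes and 0.12 over all tested genes, so a gene at 0 as deposited stood below the median gene. When the libraries were rescaled by median ratios, 13 of the 35 genes fell (15.5% of all tested genes), with ENO1, PFKFB3, PGAM1 and EGLN3 added, 1 rose (13.8% of all tested genes), and the medians were -0.27 and 0.00.

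**Figure D1:**
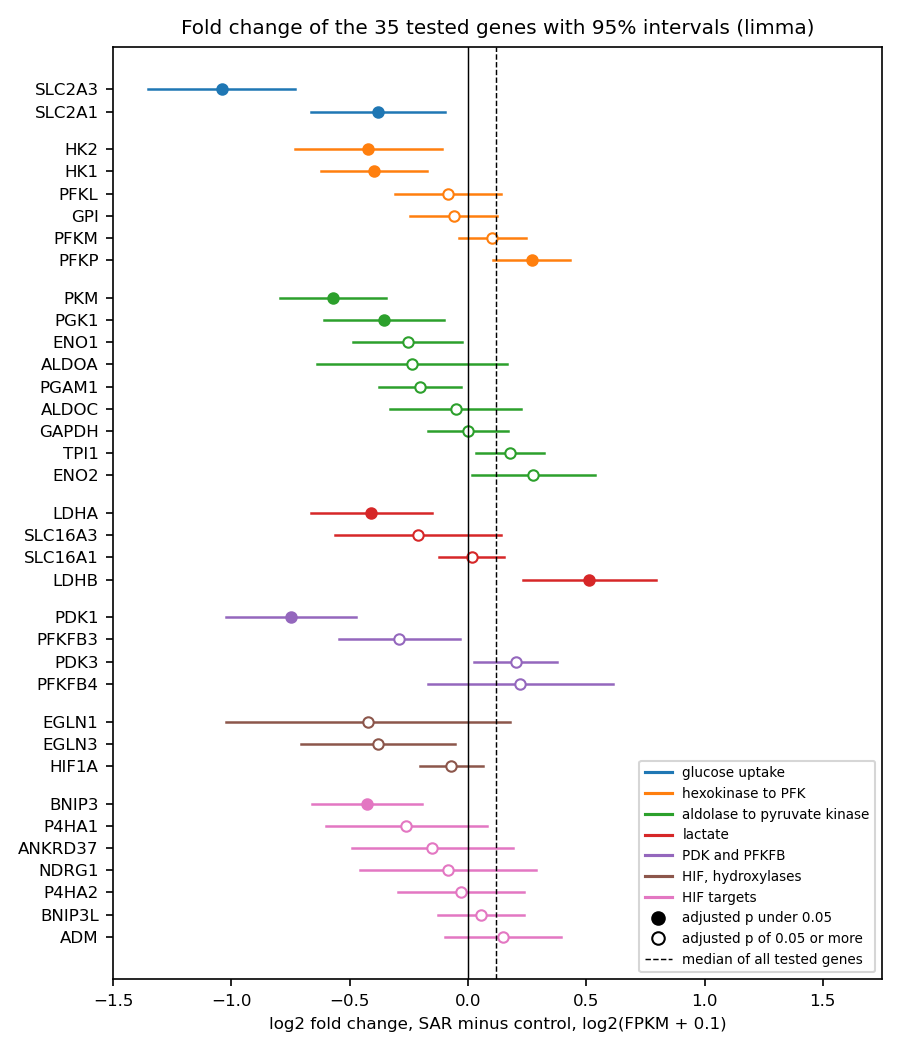
Log2 fold change (SAR minus control, log2(FPKM + 0.1) scale, x axis) of the 35 tested genes with 95% intervals from limma, grouped by role, with filled points for an adjusted p-value under 0.05. SLC2A3 at -1.04 and PDK1 at -0.75 lay lowest and LDHB at 0.51 highest, and the dashed line marks the median of all tested genes at 0.12.

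SLC2A3 (GLUT3), a high-affinity glucose transporter and the most abundant of the 37 transcripts in control, had the most negative fold change of the 35 tested genes. SLC2A3 stood at 1117, 1445 and 1221 FPKM in control and at 541, 589 and 708 FPKM with SAR, on 54832 to 214293 reads per library. All SAR libraries lay below all control libraries, and the log2 fold change was -1.04 ± 0.13 (SE; adjusted p = 0.00239, limma). The mean fell by 51.4%. It was -0.94 without control replicate 2 and -0.96 without SAR replicate 1, each short of the fold threshold, with the adjusted p-value under 0.05 in all 17 alternatives. SLC2A14, a near-identical paralog of SLC2A3 whose reads may be shared with it, stood at 3.34 to 5.53 FPKM in control and 1.51 to 2.90 FPKM with SAR (log2 fold change -0.83, adjusted p = 0.0576, limma).

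SLC2A1 (GLUT1), the widespread basal glucose transporter, stood at 52.8, 48.9 and 41.0 FPKM in control and 32.6, 35.6 and 41.3 FPKM with SAR. SAR replicate 3 reached the lowest control library, so the groups overlapped, and the log2 fold change was -0.38 ± 0.12 (SE; adjusted p = 0.0469, limma). The call was lost without control replicate 1 (-0.30), control replicate 2 (-0.36), SAR replicate 1 (-0.30) or SAR replicate 2 (-0.37). Within each library SLC2A3 exceeded SLC2A1 by 21.1, 29.5 and 29.7 times in control and by 16.6, 16.5 and 17.1 times with SAR. This ratio, which does not depend on the scaling between libraries, did not overlap between the groups (log2 difference -0.66 ± 0.16, SE, exact two-sided permutation p = 0.1, the smallest that 3 against 3 libraries allow, adjusted over 14 ratios 0.175).

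Hexokinase, which traps glucose by phosphorylation, fell in both of the forms among these genes. HK1, the form found in most tissues, stood at 38.4, 39.2 and 40.2 FPKM in control and 25.9, 30.4 and 33.6 FPKM with SAR. HK2, the inducible form and a HIF target, stood at 21.4, 28.3 and 19.8 FPKM in control and 16.8, 16.3 and 18.2 FPKM with SAR. For both genes every SAR library lay below every control library, with log2 fold changes of -0.40 ± 0.09 for HK1 (SE; adjusted p = 0.0193, limma) and -0.42 ± 0.13 for HK2 (SE; adjusted p = 0.0465, limma). The HK1 call was lost without control replicate 2 (-0.40), control replicate 3 (-0.38) or SAR replicate 2 (-0.41). The HK2 call was lost without control replicate 1 (-0.47), control replicate 2 (-0.27), SAR replicate 1 (-0.41), SAR replicate 2 (-0.39) or SAR replicate 3 (-0.47). With all libraries kept, the HK2 call was also lost with no filter, no intensity trend or a replicate block (adjusted p = 0.0623 to 0.108, limma). HK2 to HK1 stood at 0.560, 0.723 and 0.493 in control and 0.651, 0.538 and 0.542 with SAR, a log2 difference of -0.02 ± 0.19 (SE) with overlapping groups (exact permutation p = 0.8).

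GPI, which isomerizes glucose 6-phosphate, stood between 24.0 and 28.6 FPKM over the 6 libraries, with a log2 fold change of -0.06 (95% interval -0.24 to 0.12, adjusted p = 0.565, limma). Of the 3 phosphofructokinases, the committed step, PFKP passed the test. PFKP, the platelet form, stood at 11.1, 10.7 and 10.6 FPKM in control and 12.1, 12.9 and 14.1 FPKM with SAR. Every SAR library lay above every control library, and the log2 fold change was 0.27 ± 0.07 (SE; adjusted p = 0.0248, limma), which became 0.15 after median-ratio rescaling and then missed the threshold. The PFKP call was also lost without control replicate 2 (0.26), control replicate 3 (0.26) or SAR replicate 2 (0.28). The liver form PFKL stood at 21.8, 24.7 and 23.5 FPKM in control and 19.4, 22.4 and 24.5 FPKM with SAR (log2 fold change -0.08, adjusted p = 0.52, limma), and the muscle form PFKM at 12.9, 13.7 and 12.9 FPKM in control and 13.5, 14.1 and 14.8 FPKM with SAR (0.10, adjusted p = 0.217, limma; -0.02 after rescaling). Within libraries PFKL to PFKP went from 1.96, 2.30 and 2.21 in control to 1.60, 1.73 and 1.73 with SAR, and PFKM to PFKP from 1.16, 1.28 and 1.21 to 1.11, 1.09 and 1.05. Neither ratio overlapped between the groups (log2 differences -0.35 ± 0.08 and -0.17 ± 0.05, SE, exact permutation p = 0.1 for each).

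**Figure D2:**
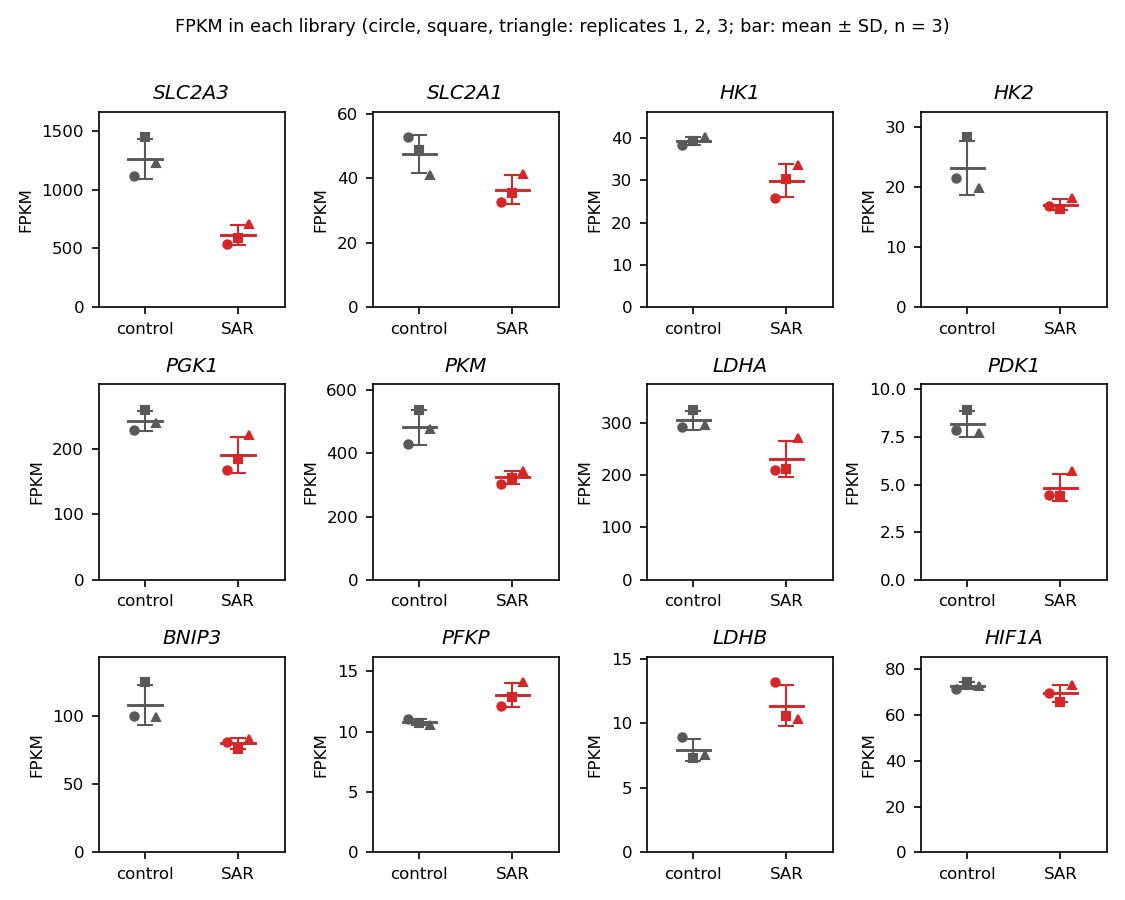
FPKM of 12 genes in each of the 3 control and 3 SAR libraries (y axis, from 0), with circles, squares and triangles for replicates 1, 2 and 3 and bars for mean ± SD. PKM and SLC2A3 separated by group with room to spare, SLC2A1 and HIF1A overlapped, and SAR replicate 3 lay nearest to control for several genes that fell.

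From aldolase to pyruvate kinase, PKM and PGK1 fell, and the other 7 genes did not pass the test. PKM, the pyruvate kinase that makes pyruvate and ATP in the last step, stood at 430, 538 and 478 FPKM in control and 304, 323 and 345 FPKM with SAR. The highest SAR library lay below the lowest control library, and the log2 fold change was -0.57 ± 0.09 (SE; adjusted p = 0.00583, limma). The adjusted p-value of PKM stayed under 0.05 in all 17 alternatives, with log2 fold changes between -0.72 and -0.44. The table gives 1 value per gene, so the PKM1 and PKM2 splice forms are not separated. PGK1, which makes ATP from 1,3-bisphosphoglycerate and carries HIF cores in its promoter as shown above, stood at 230, 260 and 240 FPKM in control and 168, 184 and 221 FPKM with SAR. The groups did not overlap, and the log2 fold change was -0.36 ± 0.11 (SE; adjusted p = 0.0414, limma). That call was lost without control replicate 1 (-0.40), 2 (-0.31) or 3 (-0.36) and without SAR replicate 1 (-0.27) or 2 (-0.33). With all libraries kept, it was also lost with no filter, no intensity trend or the TPM scale (adjusted p = 0.0513 to 0.109, limma).

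GAPDH, the step that reduces NAD and a usual reference gene, stood at 1060, 1091 and 1076 FPKM in control and 1022, 1047 and 1166 FPKM with SAR. The groups overlapped, and the log2 fold change was 0.00 as deposited (95% interval -0.17 to 0.17, adjusted p = 0.988, limma) and -0.12 after rescaling. TPI1, which interconverts the triose phosphates, stood at 382, 403 and 393 FPKM in control and 420, 447 and 466 FPKM with SAR, with no overlap, and had a log2 fold change of 0.18 (adjusted p = 0.0636, limma; 0.05 after rescaling). PGAM1, phosphoglycerate mutase, stood at 317, 347 and 334 FPKM in control and 265, 296 and 307 FPKM with SAR, also without overlap but on the lower side (-0.20, adjusted p = 0.0699, limma). These abundant enzymes differ from their processed pseudogenes at few bases, so how multiply mapped reads were treated could change their values.

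Enolase, which makes phosphoenolpyruvate, is encoded by ENO1 and ENO2 among these genes, and neither passed the test as deposited. ENO1, the ubiquitous form, stood at 533, 623 and 584 FPKM in control and 437, 483 and 541 FPKM with SAR (log2 fold change -0.26, adjusted p = 0.0837 as deposited and 0.0324 after rescaling, limma). ENO2, the form known from neurons, stood at 52.3, 62.9 and 56.1 FPKM in control and 61.9, 66.5 and 79.7 FPKM with SAR (0.28, adjusted p = 0.0933, limma). Each gene overlapped between the groups on its own. Their ratio within a library did not overlap, although the exact test of 3 against 3 cannot pass 0.05: ENO2 to ENO1 stood at 0.0982, 0.101 and 0.0963 in control and at 0.142, 0.138 and 0.148 with SAR. The log2 difference of 0.53 ± 0.04 (SE, exact permutation p = 0.1, adjusted 0.175) lay between 0.51 and 0.56 over its alternatives, the narrowest range of the 14 ratios.

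The aldolases, which split fructose 1,6-bisphosphate, gave no call. ALDOA, the muscle and ubiquitous form, was listed at 2.42, 2.83 and 3.00 FPKM in control and 1.77, 2.64 and 2.64 FPKM with SAR, on 113 to 265 reads. In GENCODE 29, 42.3% of its exon bases are shared on the same strand with another gene model, AC093512.2, and the setting for reads in such overlaps is not given in the sources used here, so its level may be understated. Its log2 fold change was -0.24 (95% interval -0.64 to 0.17, adjusted p = 0.312, limma). ALDOC, the brain form, stood at 20.0, 23.1 and 20.5 FPKM in control and 18.4, 19.0 and 24.3 FPKM with SAR (-0.05, adjusted p = 0.752, limma). ALDOC to ALDOA overlapped between the groups (exact permutation p = 0.4).

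Summed over the 17 enzymes from HK1 to LDHB, the level was 3460, 3829 and 3620 FPKM in control (3636 ± 185, SD, n = 3) and 3032, 3212 and 3566 FPKM with SAR (3270 ± 272, SD, n = 3). SAR replicate 3 lay above control replicate 1, so the sums overlapped. As a share of all FPKM of the library the sum was 1.22%, 1.42% and 1.32% in control and 1.03%, 1.12% and 1.29% with SAR. As a description of its make-up, the share of single enzymes can be given. PKM went from 13.3% of the sum in control to 9.90% with SAR and LDHA from 8.36% to 7.04%, while GAPDH went from 29.6% to 33.0% and TPI1 from 10.8% to 13.6%.

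The lactate dehydrogenases moved in opposite directions. LDHA, the subunit that favours lactate formation, stood at 291, 325 and 296 FPKM in control and 210, 211 and 270 FPKM with SAR. LDHB, the subunit that favours the return of lactate to pyruvate, stood at 8.94, 7.32 and 7.55 FPKM in control and 13.2, 10.6 and 10.4 FPKM with SAR. Neither gene overlapped between the groups: LDHA fell with a log2 fold change of -0.41 ± 0.11 (SE; adjusted p = 0.0276, limma), and LDHB rose by 0.51 ± 0.12 (SE; adjusted p = 0.0176, limma). The LDHA call was lost without control replicate 2 (-0.36), control replicate 3 (-0.43), SAR replicate 1 (-0.35) or SAR replicate 2 (-0.35), and the LDHB call without control replicate 2 (0.46) or control replicate 3 (0.48). With no filter on low values the LDHA call was also lost (adjusted p = 0.0779, limma). Within a library, LDHA exceeded LDHB by 32.3, 43.8 and 38.7 times in control and by 15.8, 19.8 and 25.8 times with SAR. The log2 difference of this ratio was -0.92 ± 0.24 (SE, exact permutation p = 0.1, adjusted 0.175) and lay between -1.10 and -0.75 over its alternatives. LDHB rested on 425 to 657 reads, and 33.4% of its exon bases are shared on the same strand with AC010197.2, so its level, and with it the size of the ratio, may depend on how such reads were assigned. The promoter of LDHA held 5 core matches and that of LDHB 0. ALDOC also held 5, with a log2 fold change of -0.05, and PDK1 held 0, with one of -0.75. BNIP3 held 6 (-0.43), HK2 held 3 (-0.42) and PGK1 held 3 (-0.36). The part of the cores in these fold changes was not tested.

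The transporters that carry lactate out of the cell gave no call. SLC16A1 (MCT1) stood between 111 and 124 FPKM in control and between 115 and 120 FPKM with SAR (log2 fold change 0.01 as deposited and -0.11 after rescaling, adjusted p = 0.864 as deposited, limma). SLC16A3 (MCT4), a HIF target, stood at 12.4, 16.0 and 12.7 FPKM in control and 10.7, 10.6 and 14.3 FPKM with SAR (-0.21, adjusted p = 0.299, limma). Their ratio overlapped between the groups (exact permutation p = 0.3).

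Pyruvate dehydrogenase kinases inhibit pyruvate dehydrogenase, which turns pyruvate into acetyl-CoA in the mitochondria. The 2 among these genes differed in the sign of their fold change, although only PDK1 passed the test. PDK1, a HIF target, stood at 7.88, 8.93 and 7.68 FPKM in control and 4.46, 4.38 and 5.69 FPKM with SAR. PDK3 stood at 3.07, 3.33 and 3.17 FPKM in control and 3.53, 3.61 and 3.90 FPKM with SAR. Neither gene overlapped between the groups. PDK1 fell by 0.75 ± 0.12 on the log2 scale (SE; adjusted p = 0.00467, limma) and kept an adjusted p-value under 0.05 in all 17 alternatives, while PDK3 had a log2 fold change of 0.20 (adjusted p = 0.0755, limma; 0.08 after rescaling). PDK3 to PDK1 stood at 0.397, 0.380 and 0.421 in control and at 0.797, 0.828 and 0.692 with SAR. The log2 difference of 0.95 ± 0.09 (SE, exact permutation p = 0.1, adjusted 0.175) was the largest positive difference among the 14 ratios. PFKFB3 and PFKFB4 make fructose 2,6-bisphosphate, the activator of phosphofructokinase. PFKFB3 stood at 8.62, 9.22 and 7.68 FPKM in control and 6.35, 7.95 and 6.55 FPKM with SAR (-0.29, adjusted p = 0.0778, limma), and PFKFB4 at 9.34, 12.4 and 8.33 FPKM in control and 10.6, 10.7 and 13.6 FPKM with SAR (0.22, adjusted p = 0.332, limma). Both overlapped between the groups, as did their ratio (exact permutation p = 0.2).

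**Figure D3:**
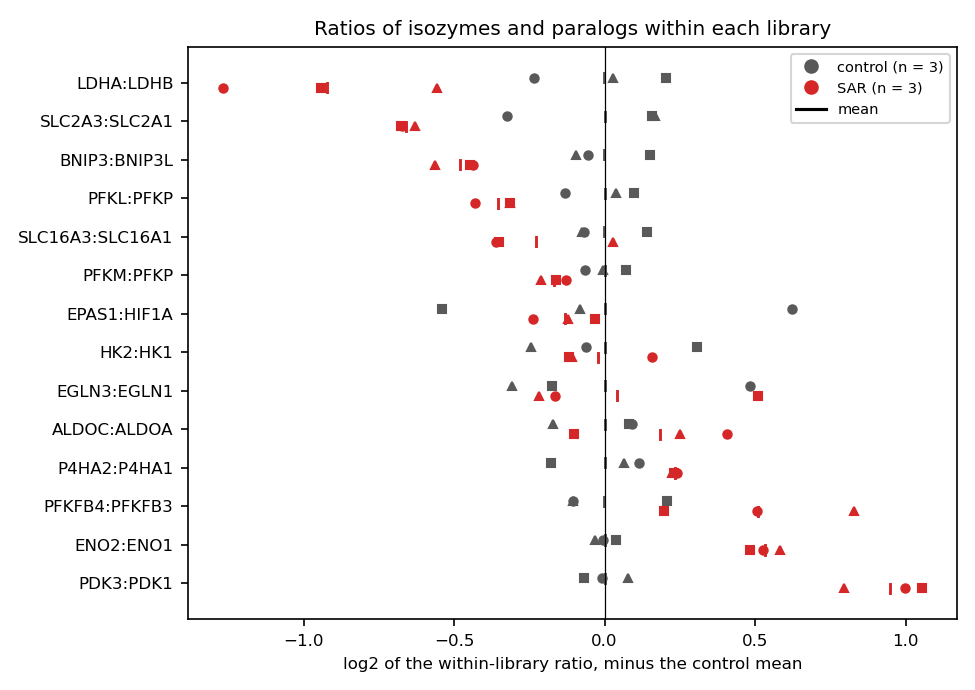
Log2 of the ratio of FPKM + 0.1 of paired isozymes or paralogs within each library, minus the control mean (x axis), for 14 pairs, with marker shapes for replicates 1, 2 and 3 and a bar at each group mean. The groups stood apart in 8 of the 14 pairs, from LDHA:LDHB at -0.92 to PDK3:PDK1 at 0.95, and overlapped in the other pairs. Taken singly, 35.5% of all tested genes stood apart with SAR higher and 15.2% with SAR lower. The pairs PFKL:PFKP and PFKM:PFKP share PFKP.

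Among the oxygen-sensing members no gene passed the test. HIF1A, the alpha subunit that is controlled mainly as a protein, stood at 71.4, 74.4 and 72.8 FPKM in control and 69.5, 65.6 and 73.3 FPKM with SAR. The groups overlapped, and the log2 fold change was -0.07 (95% interval -0.20 to 0.06, adjusted p = 0.368, limma). EPAS1 (HIF2A) was listed at 0.501, 0.180 and 0.276 FPKM in control and 0.222, 0.251 and 0.269 FPKM with SAR, on 27 to 80 reads per library, and was not tested. EGLN1 (PHD2), the main HIF hydroxylase, stood at 0.611, 0.731 and 0.797 FPKM in control and 0.546, 0.362 and 0.637 FPKM with SAR, on 33 to 96 reads, too few to settle a change of its size (log2 fold change -0.42, 95% interval -1.02 to 0.18, adjusted p = 0.232, limma). EGLN3 (PHD3), a hydroxylase that HIF itself induces, stood at 3.92, 2.88 and 2.83 FPKM in control and 2.23, 2.56 and 2.46 FPKM with SAR. All SAR libraries of EGLN3 lay below all control libraries, with a log2 fold change of -0.38 ± 0.14 (SE; adjusted p = 0.0717 as deposited and 0.0292 after rescaling, limma). The ratios EPAS1 to HIF1A and EGLN3 to EGLN1 overlapped between the groups (exact permutation p = 0.8 and p = 0.7).

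Among the 8 HIF targets outside glycolysis, BNIP3 fell and 6 others did not pass the test. BNIP3, a mitophagy receptor with 6 cores in its promoter, stood at 100.2, 125 and 99.6 FPKM in control and 81.2, 75.8 and 83.6 FPKM with SAR. The groups did not overlap, and the log2 fold change was -0.43 ± 0.10 (SE; adjusted p = 0.0175, limma), a call that was lost in 1 of 17 alternatives, without SAR replicate 2 (-0.39). Its paralog BNIP3L stood at 33.7, 36.4 and 34.4 FPKM in control and 35.5, 33.3 and 40.0 FPKM with SAR (0.06 as deposited and -0.07 after rescaling, adjusted p = 0.601 as deposited, limma). BNIP3 to BNIP3L stood at 2.97, 3.43 and 2.89 in control and 2.28, 2.27 and 2.09 with SAR, without overlap (log2 difference -0.48 ± 0.09, SE, exact permutation p = 0.1, adjusted 0.175).

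The prolyl hydroxylases of collagen, P4HA1 and P4HA2, overlapped between the groups. P4HA1 stood at 56.0, 75.7 and 57.2 FPKM in control and 47.7, 48.4 and 61.0 FPKM with SAR (log2 fold change -0.26, adjusted p = 0.199, limma). P4HA2 stood at 2.91, 3.21 and 2.87 FPKM in control and 2.70, 2.72 and 3.43 FPKM with SAR (-0.03, adjusted p = 0.864, limma). Their ratio did not overlap, with P4HA2 to P4HA1 at 0.0536, 0.0437 and 0.0518 in control and 0.0585, 0.0581 and 0.0578 with SAR (log2 difference 0.23 ± 0.09, SE, exact permutation p = 0.1, adjusted 0.175). NDRG1 (-0.08), the peptide hormone gene ADM (0.15) and ANKRD37 (-0.15) also had no call, with adjusted p-values in limma of 0.702, 0.3 and 0.445, and 35.2% of the exon bases of ANKRD37 lie opposite UFSP2. CA9, a carbonic anhydrase used as a marker of hypoxia, was listed at 0.681, 0.280 and 0.264 FPKM in control and 0.559, 0.330 and 0.372 FPKM with SAR, on 8 to 24 reads, with 38.5% of its exon bases opposite ARHGEF39, and was not tested.

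The libraries of a group differed together over these genes. Relative to the control mean, the median of the 35 genes was -0.06, 0.09 and -0.04 on the log2 scale in the control libraries and -0.33, -0.15 and 0.01 in the SAR libraries, each in the order of replicates 1, 2 and 3. Over all tested genes this median was between 0.12 and 0.13 in each SAR library. As deposited, SAR replicate 3 thus lay within the range of the control libraries and SAR replicate 1 farthest below it. After rescaling, the medians were -0.08, 0.12 and -0.04 in the control libraries and -0.43, -0.27 and -0.12 in the SAR libraries, so that all SAR libraries lay below all control libraries, SAR replicate 3 nearest to them. SAR replicate 3 was the highest SAR library in 31 of the 35 genes (40.2% of all tested genes), and control replicate 2 the highest control library in 27 of 35 (31.3% of all tested genes). Within a group the coefficient of variation of a gene had a median of 8.23% in control and 11.5% with SAR. Without control replicate 2 and SAR replicate 1 together, an alternative chosen after the values had been seen, 4 genes fell (SLC2A3, PDK1, PKM and BNIP3; 3.96% of all tested genes) and 0 rose (8.08%). In that fit the median of the genes was -0.03, beside 0.11 over all tested genes.

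**Figure D4:**
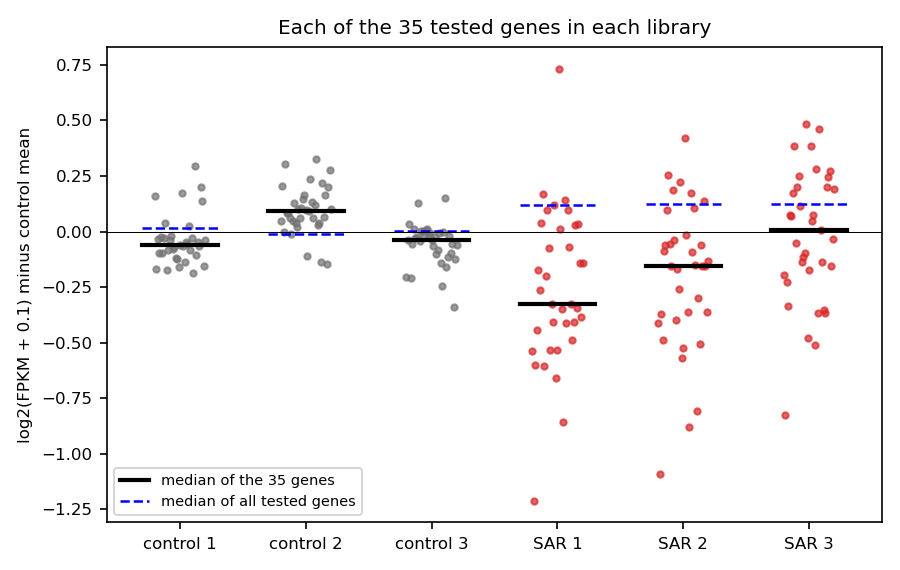
Log2 difference of each of the 35 tested genes from its control mean (points, y axis) in each of the 6 libraries (x axis), with solid bars at their median and dashed bars at the median of all tested genes. SAR replicates 1 and 2 lay at -0.33 and -0.15, and SAR replicate 3 at 0.01, beside control replicates between -0.06 and 0.09.

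Other genes of the same pathways are given by their counts, to be read against all tested genes, of which 23.7% rose and 9.55% fell with a median log2 fold change of 0.12 as deposited, and 13.8% rose and 15.5% fell with a median of 0.00 after rescaling. Of 19 tested isozymes, transporters and side-branch enzymes of glycolysis outside the 37 genes, 7 rose and 1 fell, with a median log2 fold change of 0.18, and after rescaling 4 rose and 2 fell, with a median of 0.06. The transporter SLC2A10 rose from between 1.30 and 1.59 FPKM in control to between 2.23 and 2.65 FPKM with SAR (0.77 ± 0.12, SE, adjusted p = 0.00435, limma). ENO3, the muscle enolase, rose from 3.20 ± 0.247 to 4.73 ± 0.386 FPKM (SD, n = 3, adjusted p = 0.00578, limma), MINPP1, an inositol phosphatase that can also act on 2,3-bisphosphoglycerate, rose by 0.41 (adjusted p = 0.0099, limma), and PGM2, which handles sugar phosphates, fell (log2 fold change -0.31, adjusted p = 0.00982, limma).

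Among genes for pyruvate entry to the mitochondria and nearby steps, 5 of 14 tested fell and 2 rose, with a median of -0.14. After rescaling 7 fell and 1 rose, with a median of -0.26. PDHB, the beta subunit of pyruvate dehydrogenase, stood at 70.1, 81.9 and 71.6 FPKM in control and 52.5, 47.5 and 50.8 FPKM with SAR. It fell without overlap by 0.57 ± 0.08 on the log2 scale (SE; adjusted p = 0.00293, limma). PDK4, a pyruvate dehydrogenase kinase known for its induction by fasting, stood at 0.362, 0.252 and 0.303 FPKM in control and 0.752, 0.844 and 1.02 FPKM with SAR, and rose at a low level (1.26 ± 0.24, SE, adjusted p = 0.00983, limma). ACLY, which makes cytosolic acetyl-CoA, fell by 0.39 (adjusted p = 0.0106, limma), and PC, pyruvate carboxylase, rose by 0.33 (adjusted p = 0.0186, limma; 0.21 and 0.074 after rescaling). The PC call was lost without control replicate 2 (0.28) or SAR replicate 2 (0.32), and with quantile normalization (adjusted p = 0.112, limma).

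In the pentose phosphate pathway 2 of 9 tested genes rose and 1 fell (median 0.02), and after rescaling 1 rose and 3 fell (median -0.10). As deposited, the 3 genes were PGLS at 0.54 (adjusted p = 0.00533, limma), TALDO1 at 0.25 (adjusted p = 0.0229, limma) and RPE at -0.20 (adjusted p = 0.0355, limma). In gluconeogenesis 2 of 4 rose and 0 fell (median 0.18; 0.06 after rescaling), the 2 being FBP1 at 0.80 (adjusted p = 0.0452, limma) and G6PC3 at 0.19 (adjusted p = 0.0458, limma), neither past the threshold after rescaling. These were weak calls: each of TALDO1, RPE, FBP1 and G6PC3 lost its call when any of several libraries was left out, with log2 fold changes from 0.21 (without control replicate 2) to 0.25 (without control replicate 3) for TALDO1, also lost without SAR replicate 1 or 2. RPE lost it without control replicate 1 or 3 or any SAR library (-0.22 to -0.18), FBP1 without any library but control replicate 1 (0.59 to 0.83) and G6PC3 without any library but SAR replicate 3 (0.16 to 0.21). With no filter on low values, TALDO1, RPE, FBP1 and G6PC3 each lost the call as well (adjusted p = 0.0543 to 0.0996, limma).

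Of 15 oxygen-sensing genes and HIF partners 2 rose and 1 fell, with a median of 0.15, and after rescaling 1 rose and 2 fell, with a median of 0.04. VHL, the part of the ubiquitin ligase that recognises hydroxylated HIF alpha, stood at 9.23, 9.54 and 9.67 FPKM in control and 14.7, 15.3 and 10.8 FPKM with SAR. It rose by 0.50 ± 0.13 (SE; adjusted p = 0.0269 as deposited and 0.0719 after rescaling, limma), with SAR replicate 3 nearest to control. The VHL call was lost without any library other than SAR replicate 3 (0.41 to 0.51), and with no filter on low values (adjusted p = 0.0647, limma). ELOB, its elongin partner, rose by 0.45 (adjusted p = 0.00938, limma), and SIAH2, a ligase that acts on the EGLN enzymes, fell by 0.35 (adjusted p = 0.00553, limma).

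Of 41 tested hypoxia target genes outside the 37, 10 rose and 7 fell, with a median of 0.03, and after rescaling 6 rose and 9 fell, with a median of -0.09. VEGFA, the angiogenic growth factor, stood at 16.2, 18.8 and 17.6 FPKM in control and 32.3, 31.5 and 40.1 FPKM with SAR, well apart (0.97 ± 0.10, SE, adjusted p = 0.00147, limma). TFRC, the transferrin receptor, stood at 54.9, 68.5 and 56.2 FPKM in control and 21.4, 25.2 and 27.4 FPKM with SAR, well apart on the lower side (-1.27 ± 0.12, SE, adjusted p = 0.000944, limma). VLDLR, a lipoprotein receptor, fell by 0.92 (adjusted p = 0.00139, limma) and RAB20 by 0.55 (adjusted p = 0.00246, limma).

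Of 10 tested regulators of glucose metabolism 4 rose and 2 fell, with a median of 0.22, and after rescaling 3 rose and 2 fell, with a median of 0.10. MLXIPL (ChREBP), a glucose-sensing transcription factor that binds DNA with MLX, stood at 2.40, 1.96 and 2.11 FPKM in control and 7.94, 7.29 and 7.74 FPKM with SAR. It rose by 1.79 ± 0.09 (SE; adjusted p = 0.000136, limma), while MLX fell by 0.39 (adjusted p = 0.00656, limma). The ChREBP and MondoA targets ARRDC4 and TXNIP differed in their calls: ARRDC4 rose by 0.75 (adjusted p = 0.0122, limma), and TXNIP stood at 167, 189 and 184 FPKM in control and 167, 187 and 302 FPKM with SAR (0.23, adjusted p = 0.417, limma), high in SAR replicate 3 only. MYC, a general activator of glycolytic genes, stood at 32.5, 18.5 and 25.0 FPKM in control and 12.1, 16.4 and 13.4 FPKM with SAR. It fell without overlap by 0.83 ± 0.21 on the log2 scale (SE; adjusted p = 0.023, limma), a call lost without control replicate 3 (-0.82), SAR replicate 1 (-0.74) or SAR replicate 3 (-0.81). With no filter on low values the MYC call was also lost (adjusted p = 0.0578, limma). Its relative MYCN rose by 0.83 ± 0.11 (SE; adjusted p = 0.00278, limma).

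**Figure D5:**
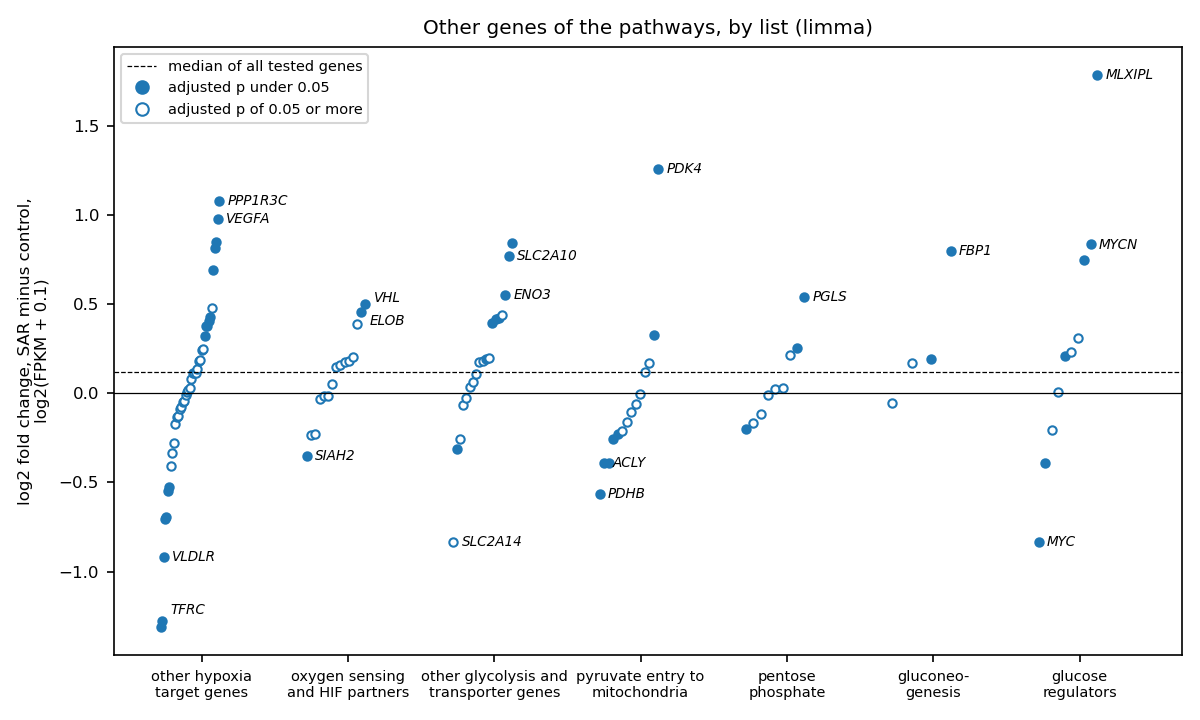
Log2 fold change (SAR minus control, log2(FPKM + 0.1) scale, y axis) of each tested gene of 7 further lists (x axis), with filled points for an adjusted p-value under 0.05 in limma and the median of all tested genes dashed. Among the hypoxia targets VEGFA lay at 0.97 and TFRC at -1.27, and MLXIPL at 1.79 lay highest of all genes plotted.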

How the data were processed

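RNA-seq of 3 control and 3 SAR samples was analysed. The authors deposited FPKM per Ensembl gene, 1 column per library and without pooling. The submitters' processing notes name HISAT2, featureCounts, Subread, DESeq2 and GRCh38.p13. The annotation release, strand setting and treatment of multiply mapped reads are not given in the sources used here, so overlapping genes and genes with pseudogenes are uncertain. FPKM carry no scaling between libraries beyond the library total.

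Because FPKM are not counts, limma 3.58.1 in R 4.3.3 (lmFit, eBayes with an intensity trend, no replicate block) was run on log2(FPKM + 0.1). A gene entered when its 6 libraries averaged 0.5 FPKM or more, which 16371 did, and the Benjamini-Hochberg adjustment was over all 16371. The pseudocount makes fold changes of low genes smaller. The test was checked on simulated data. Whole reads were recovered for 40394 of 40396 genes (tolerance 0.02 reads), with gene lengths partly from GENCODE 29, and were used for depth and for a voom alternative. They cover counting error only. Ratios of isozymes were taken within each library and compared with exact two-sided permutation tests. Gene symbols were available for 30235 of 40396 IDs, and gene positions came from GENCODE 29. Cores were searched on both strands as ACGTG and GCGTG.

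The 37 genes, the other lists and the rule for named genes (genes past the adjusted p-value with no overlap, members of the ratios described, HIF1A, EPAS1, EGLN1, EGLN3, VEGFA, TXNIP, MYC and VHL, and up to 4 genes with the smallest adjusted p-value per other list) were chosen with earlier results of these data known. SLC2A14 and the remaining members were named after their values were seen. Some genes of the lists are not reported here by name. Python 3.11.15 was used with scipy 1.17.1, numpy 2.4.6, pandas 2.3.3 and matplotlib 3.10.9.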

Additional observations from a re-analysis of the deposited data

How the results depend on the processing

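Each result was recomputed with a TPM scale, quantile normalization, median-ratio rescaling, other pseudocounts (1 and 0.01) and filters (none, or a mean of 1 FPKM), no intensity trend, a replicate block, voom on the recovered reads, a fold limit of 0.58 and each library left out, and in 1 setting added after the values had been seen, without control replicate 2 and SAR replicate 1. SLC2A3, PDK1 and PKM fell in each fit. The count of genes that fell, 9 (9.55% of all tested genes), was 5 with no filter (2.85%), 13 with rescaling (15.5%) or voom (11.1%), 12 with quantile normalization (14%), 6 with no intensity trend (8.14%), between 4 and 10 with 1 library left out (5.06% to 11.2%), and 4 in the added setting (3.96%). The count that rose, 2 (23.7%), was 1 with no filter (6.75%), rescaling (13.8%) or the TPM scale (19.3%), 5 with voom (27.5%), between 0 and 3 with 1 library left out (12.9% to 23%), and 0 in the added setting (8.08%). With the fold threshold, the count of genes that fell, 1 (1.58% of all tested genes), was between 0 and 1 with 1 library left out. It was 0 without control replicate 2 or SAR replicate 1, 0 in the added setting and 2 at a limit of 0.58. The shares of all tested genes under a fold limit are not given for these settings, so these counts cannot be set against them. The log2 ratio of the summed enzymes, -0.15, was -0.28 with rescaling and between -0.22 and -0.10 with 1 library left out. The median of the genes lay between -0.25 and -0.06 with 1 library left out. The cause of these changes was not tested, other than that the settings that leave out libraries hold fewer samples.

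Replicate numbers did not pair the libraries (same-number correlations of deviations 0.073, 0.003 and 0.025). With the replicate block 8 genes fell (8.84% of all tested genes) and 2 rose (20.8%), SLC2A1 and HK2 no longer passing and PFKFB3 passing.

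Directions turned only in genes and ratios without a call. With rescaling, PFKM was at -0.019, GAPDH -0.121, SLC16A1 -0.108 and BNIP3L -0.067. With quantile normalization and the TPM scale, GAPDH was at -0.099 and -0.044 and SLC16A1 at -0.050 and -0.031. Over the settings that left out libraries, the added one included, the log2 fold change of GPI ranged from -0.129 to 0.036, PFKL -0.161 to 0.047, ALDOC -0.178 to 0.084, GAPDH -0.056 to 0.049, SLC16A1 -0.019 to 0.063, BNIP3L -0.016 to 0.114, NDRG1 -0.250 to 0.127, P4HA2 -0.138 to 0.080 and TXNIP -0.027 to 0.441. The ratio HK2 to HK1 ranged from -0.146 to 0.130, EPAS1 to HIF1A from -0.400 to 0.180 and EGLN3 to EGLN1 from -0.191 to 0.284, the last also at -0.112 with a pseudocount of 1.

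Few reads limited the precision for EPAS1, CA9 and EGLN1. ALDOA and LDHB share exon bases with other genes, and the part of this in their values was not tested. With 3 libraries against 3 no exact permutation test could reach 0.05, and with a pairing none below 0.25.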
